A study of Mus musculus with 12 samples.

Results

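The 10 genes described here belong to the Notch pathway and were chosen by name from the 55536 mouse genes of a read count table: the receptors *Notch1*, *Notch2* and *Notch3*, the ligands *Dll1* and *Jag1*, the target genes *Hes1*, *Hey1* and *Heyl*, the related gene *Hes6*, and *Numb*. All 10 had enough counts to be tested, as did 14499 genes in all. RNA was sequenced from C2C12GFP cells, an immortalised mouse myoblast line that carries green fluorescent protein, after differentiation toward myotubes. There were 3 samples in each of 4 groups, named by the plate coating: Control (no coating named in the labels), Collagen I, Fibronectin, and Geltrex, a basement membrane extract rich in laminin. All samples came from a single cell line, so no group holds more than that one genetic background, and the day at which RNA was taken is not given in the sources used here. The total was between 22520404 and 27351766 counts per sample.

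Notch receptors are activated when a ligand on a neighbouring cell, of the Delta or Jagged family, pulls on them. Cleavage by ADAM10 and then by γ-secretase frees the intracellular domain, which enters the nucleus and joins RBPJ and a Mastermind protein to switch on *Hes* and *Hey* genes. In skeletal muscle the pathway is known for holding back differentiation and for keeping satellite cells quiescent, and ligands of the Delta family are made by differentiating cells.

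Unless stated otherwise, a level is in CPM, the counts of a gene scaled to its library with TMM factors from edgeR. A gene was called changed between groups at an adjusted p of at most 0.05 by the quasi-likelihood test of edgeR, adjusted by the Benjamini-Hochberg method across the 14499 genes. Each log2 fold change gives the first group named relative to the second and carries its standard error (SE), and each pair of groups had 3 against 3 samples. The 6 comparisons are the pairs of the same 4 groups, so comparisons that share a group share its samples.

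The labelled cell type was checked against marker genes. Of 10 myotube genes, including *Myog*, *Mymk* and *Ckm*, those with the most counts were *Myh3*, *Acta1* and *Tnnt3*. *Myf6*, also on the list, had 2 to 11 counts per sample and was not tested. The summed level of the 10 was 5710 to 6620 CPM in Control, 6120 to 6550 CPM on Collagen I, 1420 to 1780 CPM on Fibronectin and 1990 to 2260 CPM on Geltrex. Of 8 genes of dividing cells, such as *Mki67* and *Top2a*, the summed level ran the other way, at 259 to 316 CPM in Control, 227 to 248 CPM on Collagen I, 686 to 884 CPM on Fibronectin and 726 to 782 CPM on Geltrex. Fibronectin and Geltrex samples were thus set apart from Control and Collagen I samples in both lists, without overlap. A list of 10 reserve and satellite cell genes, with *Calcr* at 0 counts, summed to 1590 to 2090 CPM in Control, 1820 to 1980 on Collagen I, 1230 to 1650 on Fibronectin and 2120 to 2180 on Geltrex. The Geltrex samples were thus the highest in this sum, which weighs the abundant genes most. Over the 12 samples *Itga7* had the most counts in the list, at 312283, then *Sdc4* at 78891 and *Cdh15* at 76576. *Pax7* had only 112 and *Pax3* 48. Of the 8 tested genes of this list, 4 were called higher and 0 lower on Geltrex than in Control, where 16.4% and 16.6% of all genes were. Relative to Fibronectin, 5 were higher and 0 lower on Geltrex, where the shares of all genes were 9.06% and 10.3%. The lowest log2 fold changes of the list in these comparisons, −1.35 and −1.15, were not called, so its genes did not all move in the same direction. *Pax7*, the tested gene of the list with the fewest counts, was not called in a test of any difference among the 4 groups (adjusted p = 0.0654). Endothelial genes were close to absent, with 4 of 6 at no more than 3 counts in any sample, *Tie1* at 0 and a sum of at most 3.49 CPM. Macrophage genes, with *Adgre1* at 0, summed to at most 13.7 CPM, adipocyte genes to at most 18.1 CPM and osteoblast genes to at most 95.6 CPM. The sums of these 4 lists were low beside that of the myotube list, but single genes were not all low. Over the 12 samples *Runx2* of the osteoblast list had 20075 counts, *Pparg* of the adipocyte list 3991 and *Cd14* of the macrophage list 2635. The myotube genes *Ckm* and *Mymx* had 6067 and 3657. The smooth muscle and pericyte list, nearly all of it *Pdgfrb* and with *Kcnj8* at 1 count or fewer, summed to 370 to 377 CPM in Control and to between 256 and 354 CPM on the coatings. The fibroblast list summed to 5500 to 6890 CPM, mainly through *Col3a1* and *Dcn*. Over the 12 samples *Ly6a* had 97469 counts, *Lum* 18667 and *Pdgfra* 10750, while *Thy1* had 0. This sum overlapped that of the myotube list in Control and on Collagen I. It lay above the myotube sum on Fibronectin (5540 to 6700 CPM) and on Geltrex (5500 to 5890 CPM). Since these are bulk samples, fewer cells of a type and less RNA per cell cannot be told apart. The part of the shifts in these marker lists in the results on Notch genes was not tested.

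**Figure D1:**
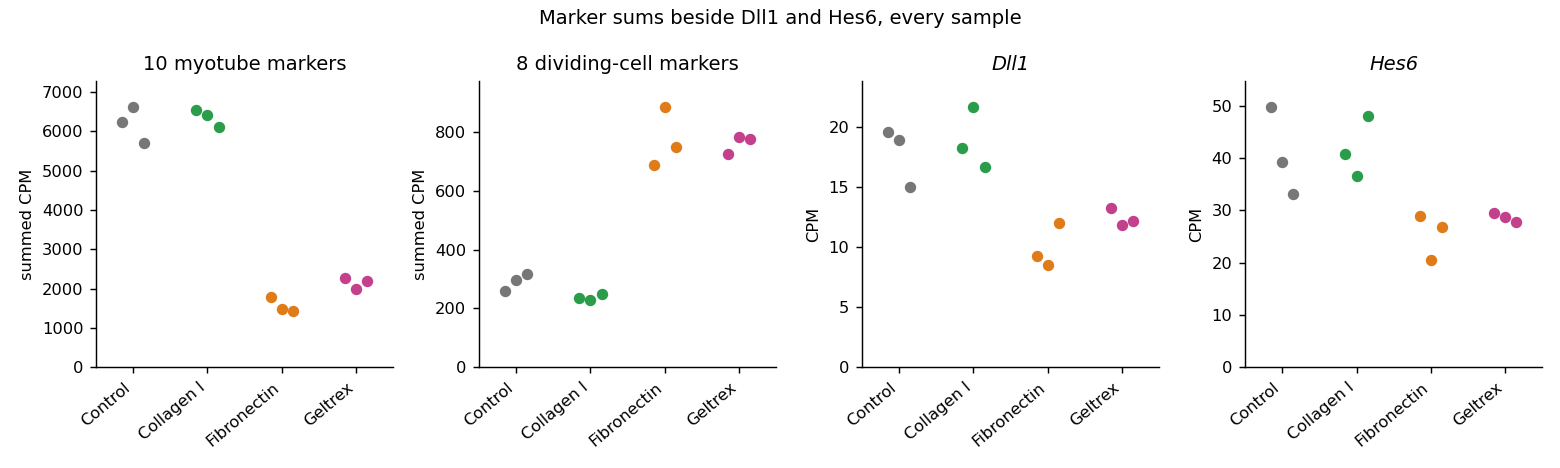
Summed level in CPM of the myotube marker list (10 genes) and the dividing-cell marker list (8 genes) in each sample, by group, beside the level in CPM of *Dll1* and *Hes6*; each point is a sample. The Fibronectin and Geltrex samples lie at 1420 to 2260 CPM for the myotube list and the Control and Collagen I samples at 5710 to 6620 CPM, and the order is reversed for the dividing-cell list, while *Dll1* and *Hes6* are lower in the former 2 groups.

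Libraries were also compared within groups. Collagen I replicate 3 stood apart, with 11.5% of its counts on mitochondrial genes against 4.56% to 8.28% in the other 11 samples, and with a chi-square per degree of freedom over genes of 42.6 and 62.4 against its replicates, where the other pair of Collagen I samples had 7.44. The Geltrex samples were unusually alike, at 2.13 to 4.34, against 19.8 to 30 within Control and Fibronectin. They still differed by more than sampling noise and were counted as 3 samples. Values without Collagen I replicate 3, and with the Geltrex samples summed, are given with the comparisons.

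Promoter sequence is shown for *Dll1* and *Hes6*, which moved together across the coatings, for *Jag1*, the other ligand, and for *Notch2*, the most abundant receptor. Each line holds 250 bases before the RefSeq transcript start nearest to the gene's GENCODE start, from GRCm38.p6, 5′ to 3′ on the minus strand for *Dll1* (chr17:15376933-15377182), *Hes6* (chr1:91414039-91414288) and *Jag1* (chr2:137116521-137116770) and on the plus strand for *Notch2* (chr3:98013288-98013537). Capitals mark CAGCTG, an E-box of the form bound by MyoD and myogenin.
Dll1: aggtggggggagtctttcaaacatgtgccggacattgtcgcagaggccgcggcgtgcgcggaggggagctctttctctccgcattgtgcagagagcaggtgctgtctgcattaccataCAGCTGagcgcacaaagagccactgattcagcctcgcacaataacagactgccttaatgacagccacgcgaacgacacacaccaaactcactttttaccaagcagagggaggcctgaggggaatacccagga
Hes6: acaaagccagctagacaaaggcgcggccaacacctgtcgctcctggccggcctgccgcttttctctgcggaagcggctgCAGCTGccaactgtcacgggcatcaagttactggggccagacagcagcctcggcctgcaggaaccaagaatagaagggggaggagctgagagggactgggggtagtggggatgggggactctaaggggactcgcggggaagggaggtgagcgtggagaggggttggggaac
Jag1: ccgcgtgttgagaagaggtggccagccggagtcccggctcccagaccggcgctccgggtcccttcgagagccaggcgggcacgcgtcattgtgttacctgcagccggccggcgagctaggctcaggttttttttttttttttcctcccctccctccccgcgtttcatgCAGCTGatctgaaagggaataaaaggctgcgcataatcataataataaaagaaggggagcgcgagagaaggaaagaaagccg
Notch2: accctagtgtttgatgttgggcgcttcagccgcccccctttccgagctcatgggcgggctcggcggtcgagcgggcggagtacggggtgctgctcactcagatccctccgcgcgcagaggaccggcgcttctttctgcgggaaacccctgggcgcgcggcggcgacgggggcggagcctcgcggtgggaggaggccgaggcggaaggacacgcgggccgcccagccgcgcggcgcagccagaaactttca
The E-box began 132 bases before the start of *Dll1*, 171 bases before that of *Hes6* and 82 bases before that of *Jag1*. A second RefSeq start of *Dll1*, at 15375823, had no CAGCTG in its window. The window of a second *Hes6* start, at 91413222, held it 150 bases before that start. RefSeq windows were matched for 7 of the 10 genes. The target genes *Hes1*, *Hey1* and *Heyl* had none, so no window of a gene listed here as a Notch target was searched. Of the 7 nearest windows, 3 held CAGCTG, which occurred in 13% of 32851 windows of this length over all genes. The latter include further starts of the same gene. The core letters of the RBPJ site, TGGGAA, searched on both strands, were in none of the 7 windows and in 21.6% of all windows. CAGCTG reads the same on both strands, and with no TGGGAA match neither motif overlapped the other. These matches describe letters in a window and say nothing of binding.

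Levels could be compared between genes only per length, as FPKM (CPM per kilobase of annotated exon). The mean over all 12 samples was 27.9 FPKM for *Notch2*, 18.9 for *Hes6*, 18.9 for *Notch3*, 11.7 for *Hes1* and 8.55 for *Numb*. The other 5 genes lay close together, at 3.49 FPKM for *Dll1*, 3.31 for *Jag1*, 3.07 for *Notch1*, 2.78 for *Hey1* and 2.60 for *Heyl*, with overlapping ranges over the samples. Neighbors in this order had overlapping ranges throughout, except *Numb* and *Dll1*. The range from the lowest to the highest sample was widest for *Hes1*, at 2.79-fold, and narrowest for *Numb*, at 1.24-fold.

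**Figure D2:**
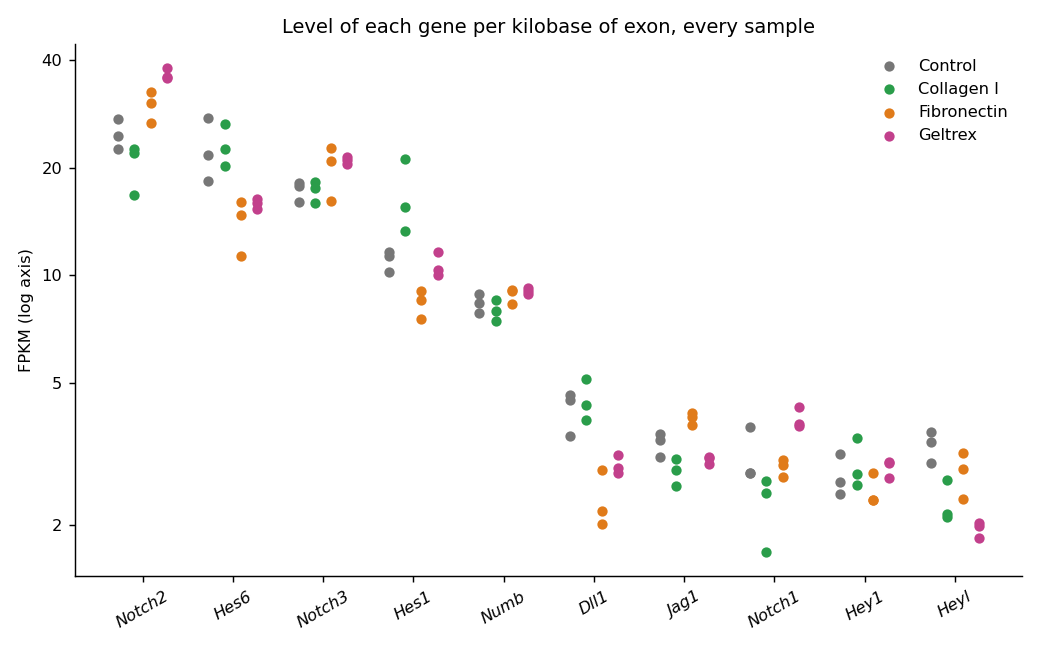
Level of the 10 Notch genes per exon length, in FPKM on a log axis, for each of the 12 samples, colored by group. *Notch2*, *Hes6* and *Notch3* are the most abundant, and the 5 genes from *Dll1* to *Heyl* have means between 2.60 and 3.49 FPKM with overlapping ranges.

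In a test of any difference among the 4 groups, 7 of the 10 genes were called, where 53.3% of all genes tested were called. The lowest adjusted p was that of *Notch2* (9.42e-05), followed by *Dll1* (0.00016) and *Hes1* (0.000182). *Notch3* (adjusted p = 0.0593), *Numb* (0.204) and *Hey1* (0.425) did not pass. Over the 6 comparisons of pairs, 21 of 60 gene comparisons were called, with folds between 1.22 and 1.98, so no gene reached a 2-fold change. Of all genes tested, the share called with at least a 2-fold change was 0.131% for Collagen I over Control, 6.66% for Fibronectin over Control, 9.14% for Geltrex over Control, 8.46% for Collagen I over Fibronectin, 9.32% for Collagen I over Geltrex and 3.98% for Geltrex over Fibronectin.

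**Figure D3:**
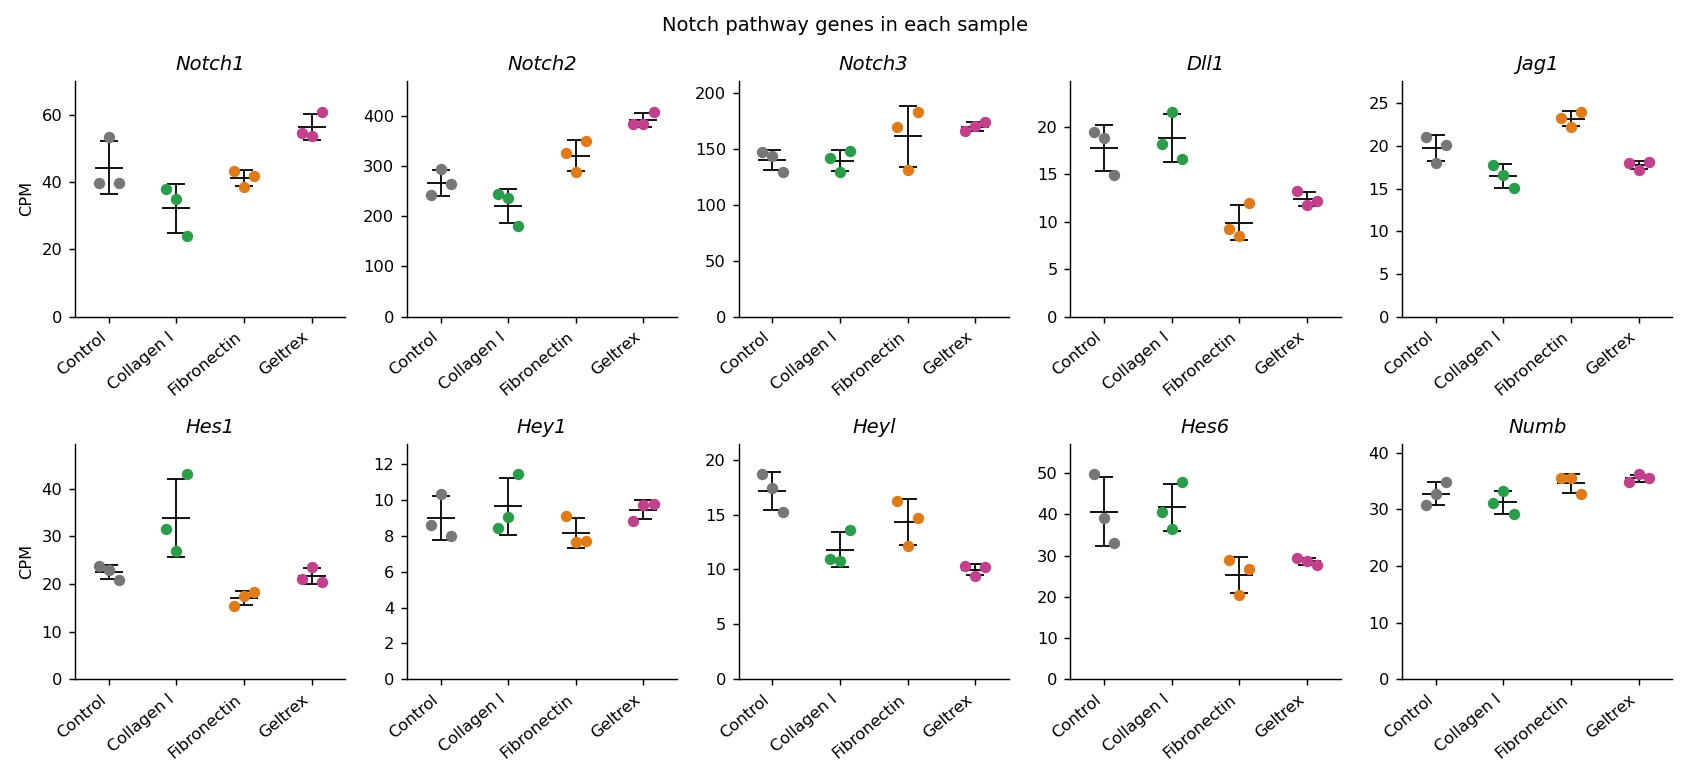
Level in CPM of each of the 10 Notch genes in each sample, by group, with 1 panel per gene; points are samples and bars the mean ± SD of 3 samples. *Notch2* is highest on Geltrex, *Hes1* highest on Collagen I, and *Dll1* and *Hes6* are lower on Fibronectin and Geltrex than in Control and on Collagen I.

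Among the receptors, *Notch2* (ENSMUSG00000027878, chr3:98013527-98150361, GRCm38) showed the clearest order of coatings. Its levels were 243, 295 and 264 CPM in the 3 Control samples and 244, 237 and 181 CPM on Collagen I. They were 326, 288 and 351 CPM on Fibronectin and 386, 384 and 409 CPM on Geltrex. Every Geltrex sample lay above every sample of the other groups, all Fibronectin samples lay above all Collagen I samples, and Control overlapped both Collagen I and Fibronectin. Relative to Control, *Notch2* rose on Geltrex by 0.55 on the log2 scale (SE 0.11, adjusted p = 0.0011). It was lower on Collagen I than on Fibronectin (−0.54, SE 0.11, adjusted p = 0.0011) and than on Geltrex (−0.83, SE 0.11, adjusted p = 3e-05). Fibronectin against Control (0.27, adjusted p = 0.0787), Collagen I against Control (−0.28, adjusted p = 0.256) and Geltrex against Fibronectin (0.29, adjusted p = 0.0797) did not pass. The low value of Collagen I replicate 3 did not decide these calls: without it the difference from Geltrex was −0.71 and was still called. Of its exon bases, 5.02% are shared with *Gm42820* on the same strand, which had 252 counts over the 12 samples against 88690 for *Notch2*.

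*Notch1* (ENSMUSG00000026923, chr2:26457903-26516663), a receptor needed to maintain satellite cells, was much less abundant per length. It stood at 39.8, 53.6 and 39.8 CPM in Control and at 37.9, 35.0 and 23.9 CPM on Collagen I. On Fibronectin it stood at 43.4, 38.7 and 41.9 CPM, and on Geltrex at 54.7, 54.0 and 61.1 CPM. The Collagen I samples were the lowest and the Geltrex samples the highest, with no overlap between either of them and any other group, though the highest Control sample nearly reached the lowest Geltrex sample. *Notch1* was lower on Collagen I than on Geltrex (−0.81, SE 0.15, adjusted p = 0.00047), and this held without Collagen I replicate 3 (−0.64, adjusted p = 0.00104). Its rise on Geltrex over Fibronectin (0.45, SE 0.14, adjusted p = 0.038) was lost when any 1 of the 6 samples was left out, with adjusted p between 0.058 and 0.138. Against Control, neither Collagen I (−0.46, adjusted p = 0.139) nor Geltrex (0.35, adjusted p = 0.0749) passed.

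*Notch3* (ENSMUSG00000038146, chr17:32120820-32166852), a receptor whose loss is known to enlarge the muscle stem cell response after injury, varied least of the 3. Its samples ranged over 129 to 147 CPM in Control, 129 to 148 CPM on Collagen I, 131 to 183 CPM on Fibronectin and 165 to 173 CPM on Geltrex. The Geltrex samples lay above all Control and all Collagen I samples, and Fibronectin spanned the other groups. The only call was a lower level on Collagen I than on Geltrex (−0.28, SE 0.11, adjusted p = 0.0446), which was lost without Collagen I replicate 1 (0.0764) or 2 (0.129), without Geltrex replicate 1 (0.0718), 2 (0.0961) or 3 (0.117), and with a filter of at least 10 counts in every sample (0.0558). Geltrex over Control missed the threshold (0.28, adjusted p = 0.0528) but passed with RLE normalization (0.0441), no filter on low counts (0.0215), DESeq2 (0.0318), only the samples compared (0.00786) and the replicate number as a block (0.0471).

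As shares of the summed receptor FPKM, *Notch2* made up 45.7% to 59.6%, *Notch3* 33.7% to 49.7% and *Notch1* 4.57% to 7.70%. *Notch4*, mainly an endothelial receptor, was not tested, with at most 13 counts in a sample and at most 0.147% of the sum. The summed receptor level was 43.3 to 48.9 FPKM in Control, 36.8 to 42.8 on Collagen I, 45.6 to 58.1 on Fibronectin and 60.0 to 63.7 on Geltrex. Collagen I replicate 3 was the sample with the highest *Notch3* share and the lowest *Notch2* share.

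The 2 ligands differed in their pattern. *Dll1* (ENSMUSG00000014773, chr17:15367354-15376872), the Delta ligand best known in muscle development, fell on Fibronectin and on Geltrex. In the Control samples it measured 19.5, 18.9 and 15 CPM, and on Collagen I 18.2, 21.6 and 16.6 CPM. On Fibronectin it measured 9.25, 8.50 and 12 CPM, and on Geltrex 13.2, 11.8 and 12.2 CPM. All 6 samples of Control and Collagen I lay above all 6 of Fibronectin and Geltrex, while the groups within each of these pairs overlapped. This split is not particular to *Dll1*: the first principal component over all genes tested, with 44.9% of the variance, parted the samples in the same way. The share of all genes with such a split was not counted. Relative to Control *Dll1* changed by −0.84 (log2) on Fibronectin (SE 0.14, adjusted p = 0.000377) and by −0.52 on Geltrex (SE 0.14, adjusted p = 0.01). On Collagen I *Dll1* stood above Fibronectin (0.93, SE 0.14, adjusted p = 0.000115) and above Geltrex (0.61, SE 0.14, adjusted p = 0.00359). Collagen I and Control were not distinguished (0.08, adjusted p = 0.806), nor were Geltrex and Fibronectin (0.32, adjusted p = 0.138). Of the exon bases of *Dll1*, 20.5% overlap *A930024N18Rik* on the opposite strand, and whether counting used strand is not given in the sources used here, so reads there cannot be told apart. That gene had 124 counts over all samples against 4374 for *Dll1*. The same limit holds for smaller parts of *Notch1* (7.50% of exon bases, with *0610009E02Rik* at 52 counts), *Notch3* (6.03%, *Gm17276* at 48 counts) and *Numb* (4.24%, *Gm46367* at 11 counts).

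*Jag1* (ENSMUSG00000027276, chr2:137081456-137116644), a Jagged ligand that also acts in vessels and in the inner ear, was highest on Fibronectin. Its levels in Control were 21, 18 and 20.1 CPM, and on Collagen I 17.8, 16.6 and 15 CPM. The Fibronectin samples had 23.3, 22.2 and 24 CPM and the Geltrex samples 18, 17.2 and 18.1 CPM. Fibronectin lay above all other samples, Collagen I lay below Control, and Geltrex overlapped both Control and Collagen I. *Jag1* was lower on Collagen I than on Fibronectin (−0.49, SE 0.09, adjusted p = 0.000635) and lower on Geltrex than on Fibronectin (−0.38, SE 0.09, adjusted p = 0.00854). Against Control, Fibronectin (0.23, adjusted p = 0.0648), Geltrex (−0.15, adjusted p = 0.24) and Collagen I (−0.26, adjusted p = 0.205) did not pass. The ratio of *Jag1* to *Dll1* in FPKM was 0.693 to 0.972 in Control and 0.556 to 0.707 on Collagen I, and rose to 1.45 to 1.89 on Fibronectin, with Geltrex at 0.983 to 1.08.

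*Hes1* (ENSMUSG00000022528, chr16:30064384-30067796), the classical Notch target and a repressor of differentiation genes, was highest on Collagen I and lowest on Fibronectin. It had 23.7, 23.0 and 20.8 CPM in Control and 31.6, 27.0 and 43.0 CPM on Collagen I. On Fibronectin it had 15.4, 17.4 and 18.4 CPM, and on Geltrex 21, 23.6 and 20.3 CPM. No Collagen I sample overlapped any other group, all Fibronectin samples lay below the rest, and Control and Geltrex overlapped. The difference between Collagen I and Fibronectin was the largest called among the 10 genes, at 0.99 on the log2 scale (SE 0.14, adjusted p = 5e-05), and Collagen I was also above Geltrex (0.64, SE 0.14, adjusted p = 0.00195). The highest value came from Collagen I replicate 3. Without it both calls held, at 0.785 (adjusted p = 6.2e-05) and 0.43 (adjusted p = 0.00689). Against Control, Collagen I missed the threshold (0.59, adjusted p = 0.052) and stood at 0.37 (adjusted p = 0.128) without that sample, while without Collagen I replicate 2 it passed (0.73, adjusted p = 0.0228). Its fall on Fibronectin relative to Control (−0.40, SE 0.14, adjusted p = 0.0406) was lost without Control replicate 1 (adjusted p = 0.121) or 2 (0.0939), or without Fibronectin replicate 1 (0.157) or 2 (0.0802).

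*Heyl* (ENSMUSG00000032744, chr4:123233556-123249875), a Hey family repressor that Notch induces in satellite cells, was lowest on Geltrex. Control samples had 18.7, 17.4 and 15.2 CPM and Collagen I samples 11.0, 10.8 and 13.6 CPM. Fibronectin samples had 16.3, 12.1 and 14.6 CPM and Geltrex samples 10.3, 9.39 and 10.2 CPM. The Geltrex samples lay below all others, the Collagen I samples below all Control samples, and Fibronectin overlapped both Control and Collagen I. *Heyl* fell on Geltrex relative to Control (−0.78, SE 0.13, adjusted p = 0.000258). It was also lower on Geltrex than on Fibronectin (−0.53, SE 0.13, adjusted p = 0.0106), a call lost without Fibronectin replicate 1 (0.0625) or Geltrex replicate 2 (0.0543). On Collagen I it missed the threshold relative to Control (−0.54, adjusted p = 0.057), and without Collagen I replicate 3 it passed (−0.66, adjusted p = 0.0257).

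*Hey1* (ENSMUSG00000040289, chr3:8663359-8667256), a second member of that family, was called in no comparison, with adjusted p between 0.178 and 0.888. Its levels were 7.98 to 10.3 CPM in Control, 8.45 to 11.4 CPM on Collagen I, 7.66 to 9.14 CPM on Fibronectin and 8.84 to 9.78 CPM on Geltrex, and all 4 groups overlapped. The ratio of *Heyl* to *Hey1* in FPKM was 1.08 to 1.38 in Control, 1.01 to 1.22 on Fibronectin, 0.759 to 0.829 on Collagen I and 0.617 to 0.747 on Geltrex.

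*Hes6* (ENSMUSG00000067071, chr1:91411483-91414038) is a Hes family gene that is not itself switched on by Notch and is known to oppose *Hes1* and to favor myogenic differentiation. Like *Dll1*, it was lower on Fibronectin and on Geltrex. It had 49.7, 39.1 and 33.2 CPM in Control and 40.7, 36.5 and 47.9 CPM on Collagen I. It had 28.9, 20.4 and 26.7 CPM on Fibronectin and 29.5, 28.7 and 27.7 CPM on Geltrex. Again all samples of Control and Collagen I lay above all those of Fibronectin and Geltrex. Relative to Control, *Hes6* changed by −0.68 (log2) on Fibronectin (SE 0.15, adjusted p = 0.00239) and by −0.51 on Geltrex (SE 0.15, adjusted p = 0.0145). The latter was lost without Control replicate 1, the highest sample, at −0.34 (adjusted p = 0.0887), or without Geltrex replicate 3 (adjusted p = 0.0552). On Collagen I *Hes6* was higher than on Fibronectin (0.72, SE 0.15, adjusted p = 0.00115) and than on Geltrex (0.54, SE 0.15, adjusted p = 0.00907), and it was not distinguished from Control (0.03, adjusted p = 0.934). The ratio of *Hes6* to *Hes1* in FPKM was 1.80 to 2.36 in Control, 1.26 to 1.52 on Collagen I, 1.32 to 2.11 on Fibronectin and 1.37 to 1.58 on Geltrex.

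*Numb* (ENSMUSG00000021224, chr12:83794034-83921934), an endocytic adaptor that limits Notch signaling and is handed to one daughter cell in asymmetric divisions, was the steadiest gene. Its samples lay at 30.8 to 34.8 CPM in Control, 29.1 to 33.3 CPM on Collagen I, 32.6 to 35.6 CPM on Fibronectin and 34.8 to 36.1 CPM on Geltrex. The Geltrex samples lay just above all Control and Collagen I samples, and no comparison passed, with adjusted p between 0.0872 and 0.785.

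By comparison, Collagen I against Control gave no call among the 10 genes, where 1.12% of all genes tested were called (0.200% higher and 0.917% lower), although 5 had an unadjusted p under 0.05, as did 2143 of all 14499 genes. DESeq2 called 2 of the 10, *Heyl* and *Hes1*, and 462 of all genes. Groups did not overlap for 4 genes, *Notch1*, *Jag1*, *Heyl* and *Hes1*, where the share over all genes was 17.3%. The median log2 fold change of the 10 genes was −0.04, against −0.003 over all genes tested.

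On Fibronectin relative to Control, 3 genes fell, *Dll1*, *Hes1* and *Hes6*, and none rose, where 31.9% of all genes were called (17.1% higher and 14.7% lower). On Geltrex relative to Control, 1 gene rose, *Notch2*, and 3 fell, *Dll1*, *Heyl* and *Hes6*, where 33.0% of all genes were called (16.4% higher and 16.6% lower). Both shares among the 10 genes, 3 and 4 of 10, lie near those of all genes. The median log2 fold changes were −0.12 and 0.008, against −0.02 and −0.01 over all genes. Groups did not overlap for 4 of the 10 genes on Fibronectin (41.6% of all genes) and for 7 on Geltrex (50.4%).

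Collagen I against Fibronectin separated 5 genes, with *Dll1*, *Hes1* and *Hes6* higher and *Notch2* and *Jag1* lower on Collagen I, where 45.0% of all genes were called (22.1% higher and 22.9% lower). Collagen I against Geltrex separated 6, with the same 3 genes, *Dll1*, *Hes1* and *Hes6*, higher and *Notch1*, *Notch2* and *Notch3* lower on Collagen I, where 37.1% of all genes were called (18.2% higher and 19.0% lower). These comparisons share the Collagen I samples. Groups did not overlap for 6 genes (51.4% of all genes) and for 8 genes (54.7%). Geltrex against Fibronectin separated 3, with *Notch1* higher and *Jag1* and *Heyl* lower on Geltrex, where 19.3% of all genes were called (9.06% higher and 10.3% lower), and groups did not overlap for 5 genes (42.7%).

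**Figure D4:**
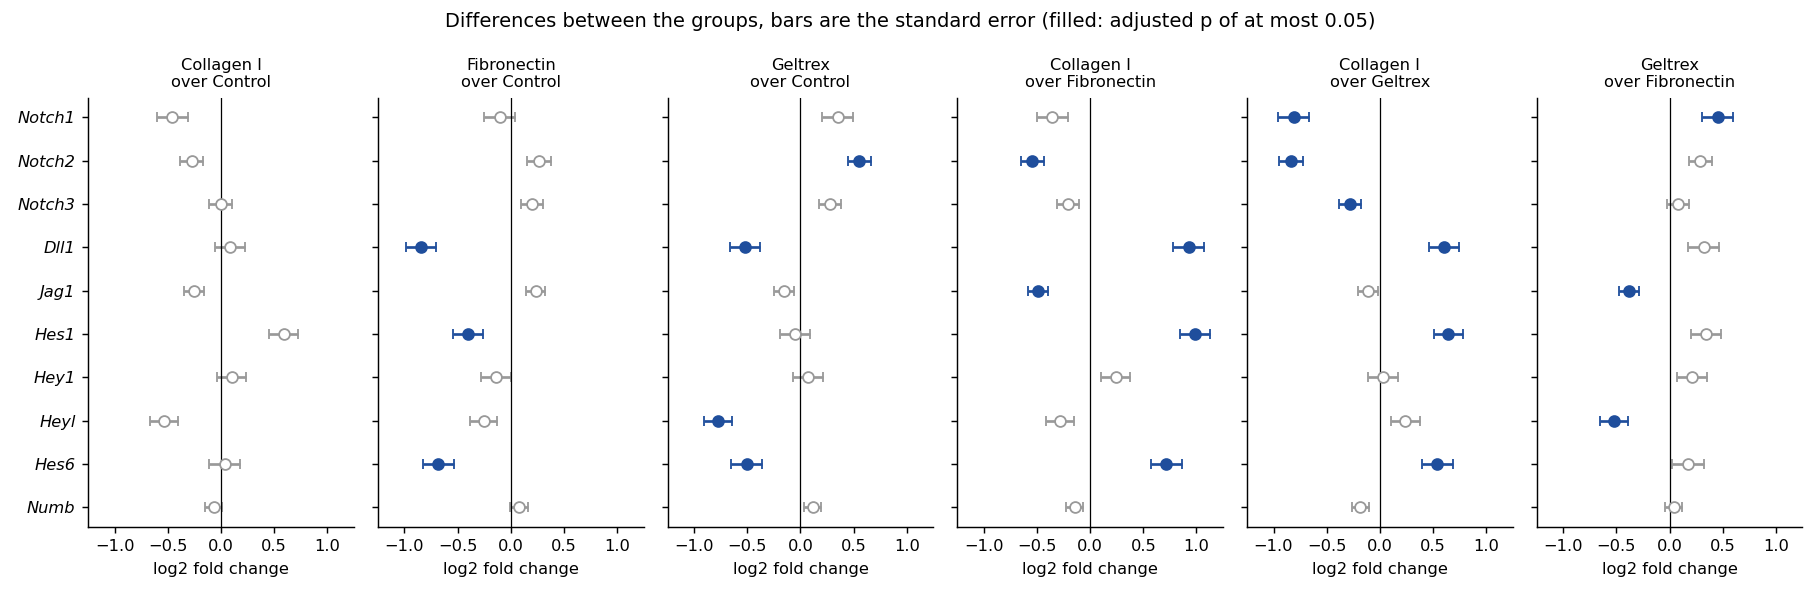
Log2 fold change of each of the 10 Notch genes in the 6 comparisons, edgeR estimate with its SE, filled where called at an adjusted p of at most 0.05. All called changes lie within 1 on the log2 scale, and the largest is *Hes1* at 0.99 for Collagen I over Fibronectin.

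Without Collagen I replicate 3, all 11 calls between Collagen I and the other coatings were kept. Against Fibronectin the log2 fold changes were then 1.01 for *Dll1* (adjusted p = 0.000101), 0.61 for *Hes6* (0.00547), −0.43 for *Jag1* (0.00292) and −0.42 for *Notch2* (0.0039). Against Geltrex they were 0.69 for *Dll1* (0.00253), 0.43 for *Hes6* (0.0416), −0.71 for *Notch2* (5.5e-05) and −0.33 for *Notch3* (0.0399). The calls of named genes of a wider pathway list that involve Collagen I were kept too, with the value of *Maml3* over Control at 0.68 (0.00338) and the differences from Fibronectin at 0.54 for *Psenen* (0.00127), −0.40 for *Aph1b* (0.0174), 0.465 for *Rfng* (0.00879) and −0.52 for *Tle3* (0.000328).

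Because the Geltrex samples were so alike, each comparison with Geltrex was also fitted with the 3 summed into 1 sample, which left 4 of 13 calls. *Notch2* and *Heyl* kept their change relative to Control (adjusted p = 0.0438 and 0.0182), and *Notch1* and *Notch2* their difference from Collagen I (0.0191 and 0.00417). The values of the 9 calls lost moved little, such as *Dll1* relative to Control (−0.51, adjusted p = 0.145) and *Hes1* on Collagen I against Geltrex (0.63, adjusted p = 0.0607).

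A wider list of 61 genes of the pathway, without the 10 above, was examined by role, and 48 were tested. The 13 that were not include the receptor *Notch4* and the ligands *Dll3*, *Dll4* and *Dlk1*. They also include all 6 further targets on the list, *Hes2*, *Hes3*, *Hes5*, *Hes7*, *Hey2* and *Nrarp*, and no target among them exceeded 5 counts in a sample. Of the exon bases of *Nrarp*, 79.4% overlap *Gm38287* (0 counts) on the opposite strand. The same holds for 31.8% of *Hes5*, with *Gm20421* (0 counts), and 12.9% of *Hes7*, with *9130213A22Rik* (158 counts). The strand setting is not given, and the part of these overlaps in the low counts was not tested. Relative to Control, 13 genes rose and 9 fell on Fibronectin, 14 rose and 8 fell on Geltrex, and 1 rose on Collagen I. The shares of all genes that rose and fell were 17.1% and 14.7% on Fibronectin, 16.4% and 16.6% on Geltrex, and 0.200% and 0.917% on Collagen I. On Collagen I, 10 were higher and 16 lower than on Fibronectin, and 6 were higher and 14 lower than on Geltrex, where 22.1% and 22.9% of all genes were higher and lower in the first of these comparisons and 18.2% and 19.0% in the second. On Geltrex 7 were higher and 3 lower than on Fibronectin, where the shares of all genes were 9.06% and 10.3%. The medians of the list relative to Control were 0.12 on Fibronectin, 0.05 on Geltrex and −0.01 on Collagen I, against −0.02, −0.01 and −0.003 over all genes. They were −0.13 for Collagen I over Fibronectin, −0.12 for Collagen I over Geltrex and 0.02 for Geltrex over Fibronectin, against 0.02, 0.03 and 0.005.

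The nuclear activation complex, which turns the cleaved receptor into transcription, had 7 tested genes, of which 5 rose on Fibronectin and 5 on Geltrex relative to Control, where 17.1% and 16.4% of all genes rose. Of these, *Rbpj*, the DNA-binding partner of the cleaved receptor, had 51.6 to 57.4 CPM in Control, 56.0 to 62.5 on Collagen I, 69.1 to 81.7 on Fibronectin and 85.9 to 90.7 on Geltrex. The samples of both last groups lay above all others, at 0.46 above Control on Fibronectin (log2, SE 0.08, adjusted p = 0.000527) and 0.69 above it on Geltrex (SE 0.08, adjusted p = 8.63e-06). *Maml3*, a Mastermind co-activator, had 21.9 to 22.4 CPM in Control, 33.2 to 38.6 on Collagen I, 25.2 to 30.5 on Fibronectin and 53.3 to 56.1 on Geltrex. None of these 4 ranges overlapped, and *Maml3* rose relative to Control on Geltrex (1.31, SE 0.09, adjusted p = 2.99e-08), on Collagen I (0.66, SE 0.09, adjusted p = 0.00204) and on Fibronectin (0.34, SE 0.09, adjusted p = 0.0091). It was the 1 pathway gene called between Collagen I and Control. The Fibronectin call was lost without Fibronectin replicate 1 (adjusted p = 0.0512). *Maml1*, a related co-activator, rose on Geltrex (0.59, SE 0.08, adjusted p = 4.4e-05). Its rise on Fibronectin (0.24, SE 0.08, adjusted p = 0.0324) was lost under 6 of 12 alternatives, among them leaving out Control replicate 2 (0.0512) or 3 (0.114) or Fibronectin replicate 1 (0.104) or 2 (0.0602).

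Of 10 receptor cleavage genes, 2 rose and 1 fell on Fibronectin and 1 rose and 1 fell on Geltrex relative to Control, where 31.9% and 33.0% of all genes were called in either direction. *Adam10*, the protease that makes the first cut, had 169 to 201 CPM in Control, 164 to 199 on Collagen I, 267 to 280 on Fibronectin and 247 to 257 on Geltrex. All samples of the last 2 groups lay above the rest, at 0.53 above Control on Fibronectin (log2, SE 0.09, adjusted p = 0.00036) and 0.42 above it on Geltrex (SE 0.09, adjusted p = 0.00174), the latter lost with the Geltrex samples summed (0.0658). *Psenen*, a γ-secretase subunit, stood higher on Collagen I than on Fibronectin (0.67, SE 0.12, adjusted p = 0.000372), and *Aph1b*, another subunit, was lower (−0.49, SE 0.12, adjusted p = 0.00331). Relative to Control on Fibronectin, the fall of *Psenen* (adjusted p = 0.0338) was lost without Control replicate 1 (0.0797) or 3 (0.148) or Fibronectin replicate 1 (0.111) or 2 (0.0823). The rise of *Aph1b* there (adjusted p = 0.0177) was lost without Control replicate 1 (0.0961) or Fibronectin replicate 1 (0.0555) or 2 (0.0754).

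Among 5 tested glycosylation genes, which tune how receptors answer each ligand, 1 rose and 1 fell on Fibronectin and 3 rose on Geltrex, where 31.9% and 33.0% of all genes were called in either direction. *Eogt*, which adds a sugar to the receptor's extracellular repeats, rose on both (0.37 and 0.35, adjusted p = 0.00429 and 0.00643), the latter lost with the Geltrex samples summed (0.105). The fringe gene *Rfng* stood higher on Collagen I than on Fibronectin (0.61, SE 0.13, adjusted p = 0.0018), and *Lfng* rose on Geltrex (0.43, SE 0.15, adjusted p = 0.0369), a call lost without Control replicate 3, without any 1 Geltrex sample, or with these summed (adjusted p up to 0.216).

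In endocytosis and turnover, 12 genes were tested, with 3 higher and 5 lower on Fibronectin and 3 higher and 3 lower on Geltrex, where the shares of all genes were 17.1% and 14.7% on Fibronectin and 16.4% and 16.6% on Geltrex. *Fbxw7*, the ubiquitin ligase subunit that marks the cleaved receptor for degradation, ranged over 96.9 to 108 CPM in Control, 79.8 to 86.1 on Collagen I, 59.7 to 81.1 on Fibronectin and 52.0 to 55.4 on Geltrex. It fell on Fibronectin (−0.51, SE 0.10, adjusted p = 0.00107) and on Geltrex (−0.95, SE 0.10, adjusted p = 2.58e-06). *Neurl1b*, a ubiquitin ligase that acts on ligands, rose from 2.24 to 3.22 CPM in Control to 5.75 to 7.32 on Fibronectin (1.19, SE 0.17, adjusted p = 6.2e-05) and 4.64 to 5.34 on Geltrex (0.82, SE 0.17, adjusted p = 0.00155). *Aak1*, a kinase of clathrin adaptors, rose on both (0.32 and 0.60, adjusted p = 0.00455 and 1.88e-05).

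The 12 nuclear repression genes included 2 that rose and 1 that fell on Fibronectin and 2 that rose and 3 that fell on Geltrex, where 31.9% and 33.0% of all genes were called in either direction. *Cir1*, an RBPJ-binding corepressor, fell on both (−0.50 and −0.69, adjusted p = 0.00805 and 0.000672), while *Ctbp2*, a general corepressor, rose on both (0.39 and 0.36, adjusted p = 0.00276 and 0.00414), the latter lost with the Geltrex samples summed (0.0812). The Groucho corepressor *Tle3* was lower on Collagen I than on Fibronectin (−0.44, SE 0.09, adjusted p = 0.000993) and than on Geltrex (−0.49, SE 0.09, adjusted p = 0.000469). Of the 2 further ligands tested, *Dlk2* fell on Fibronectin and on Geltrex relative to Control, but from 9 to 16 counts in Control to between 1 and 7 counts, and each call was lost under 6 alternatives (adjusted p up to 0.147 and 0.156).

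**Figure D5:**
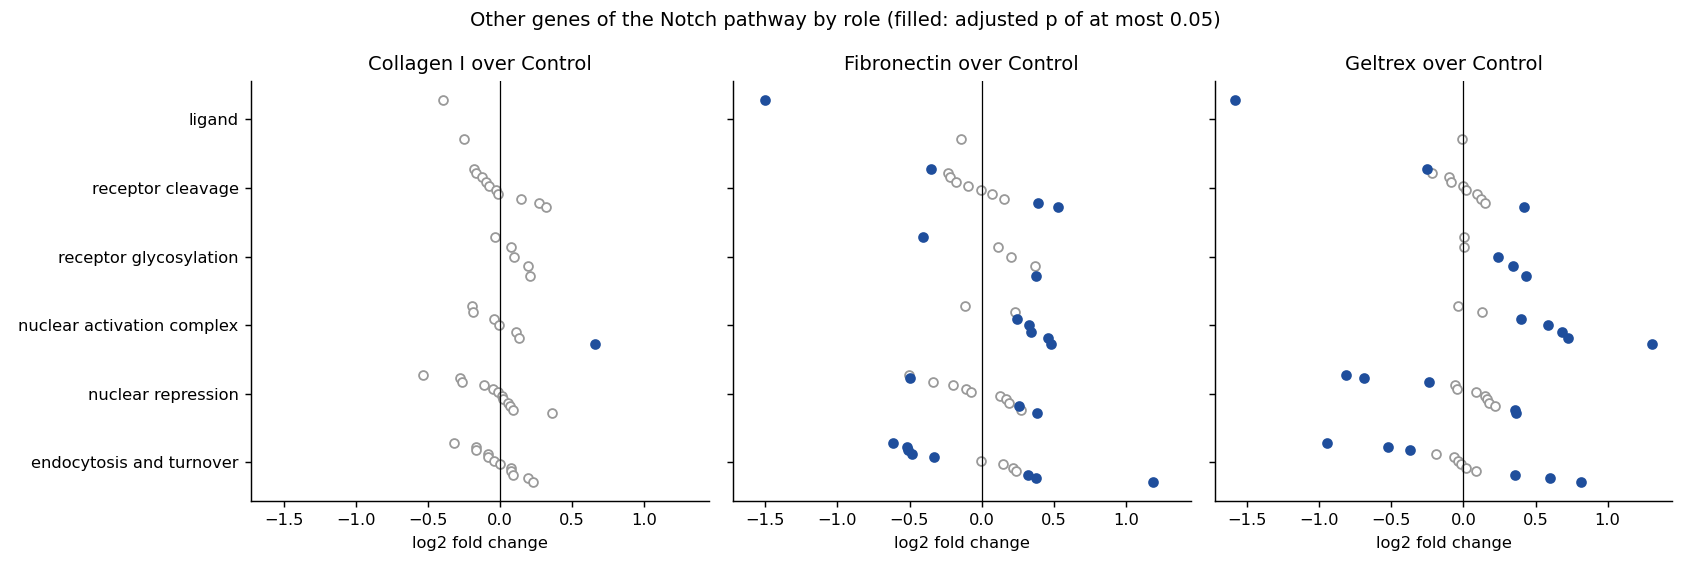
Log2 fold change of the 48 tested genes of the wider pathway list relative to Control, on Collagen I, Fibronectin and Geltrex, by role, with called genes filled. In the nuclear activation complex 5 of 7 genes lie above 0 and are called on Fibronectin and on Geltrex, with *Maml3* at 1.31 on Geltrex.

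For the 3 genes with the lowest p in the test of 4 groups, the genes most like them were sought among all genes with a mean of at least 1 CPM, by the root mean square distance between log2 CPM centered on its mean over the 12 samples. Nearest to *Notch2* were *Gm9855*, a processed pseudogene on chromosome 10 (distance 0.0757), *Matn2* (0.11) and *Arsj* (0.117). Nearest to *Dll1* were *Arl6ip5* (0.123), *Inppl1* (0.129) and *Ehbp1l1* (0.129). Nearest to *Hes1* were *Ndufs7* (0.129) and *Ndufa13* (0.13), both subunits of respiratory complex I, and *Kyat1* (0.133). These distances include Collagen I replicate 3, the sample with the highest *Hes1* level and mitochondrial share, and were not computed without it. The genes' own root mean square deviations from their means were 0.338 for *Notch2*, 0.412 for *Dll1* and 0.381 for *Hes1* on the same scale.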

How the data were processed

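RNA-seq of 12 samples was analysed. Per the labels and methods, the authors used FastQC, Trimmomatic, HISAT2 and featureCounts, and deposited raw read counts per gene. Genome build, annotation and strand setting are not given in the sources used here. All 55536 identifiers matched GENCODE M21 (GRCm38), the source of names, positions and exon lengths. The model used edgeR 4.0.16 (R 4.3.3): filterByExpr (minimum count 10, minimum total 15), TMM and 1 quasi-likelihood fit of 4 groups with 8 residual degrees of freedom. The fit was tested on simulated data. Labels do not say that replicates were separate cultures, so p-values measure only the spread between these samples, which may be technical.

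Members and lists were chosen with earlier results of these data known. Named were all 10 members, up to 3 called pathway genes per role with the lowest p in the 4-group test, the 3 genes nearest to each of 3 members, and marker genes. Alternatives were RLE normalization, other filters, DESeq2 1.42.0, fitting only the samples compared, a replicate block, a fold of at least 2, Geltrex summed, and leaving out each sample. Promoters are from RefSeq. The authors' DESeq2 results were not used.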

Additional observations from a re-analysis of the deposited data

How the results depend on the processing

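Over 750 alternative values of the 60 gene comparisons, 673 kept their direction and side of the threshold, 29 lost the call, 33 gained one and 15 changed sign, none of these 15 from a called value. With the replicate number as a block, all 21 calls were kept and 2 were gained (*Notch3*, Geltrex over Control, 0.28, adjusted p = 0.0471; *Notch1*, Collagen I over Fibronectin, −0.37, adjusted p = 0.0485). Deviations from group means had mean correlations of −0.0468 to 0.147 between same-numbered samples and −0.0732 to 0.0229 between differently numbered ones. The highest was in Collagen I over Fibronectin, with same-numbered values of 0.0473, 0.169 and 0.225 and a mean of −0.0732 for other numbers. Deviations within a group cancel out, so the mean for other numbers largely follows from that for same numbers and is no independent contrast. The main fit did not pair samples by number.

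With a fold of at least 2, the members called were 0 in every comparison. The pathway genes called were then 0 for Collagen I over Control, 2 for Fibronectin over Control, 2 for Geltrex over Control, 1 for Collagen I over Fibronectin, and 0 for both Collagen I over Geltrex and Geltrex over Fibronectin. All genes called were 19, 965, 1325, 1226, 1352 and 577 in that order. For Collagen I over Control, no filter on low counts gave 3 members and 581 genes, DESeq2 gave 2 members, 2 pathway genes and 462 genes, and fitting only the samples compared gave 39 genes. With the Geltrex samples summed, where the lone sample is assumed to vary like the other groups, Geltrex over Control gave 2 members, 8 pathway genes and 2079 genes. Collagen I over Geltrex gave 2 members, 11 pathway genes and 2130 genes, and Geltrex over Fibronectin gave 0 members, 1 pathway gene and 703 genes. Geltrex over Fibronectin gave 5 members with no filter and 5 with only the samples compared. The cause was not tested, other than that summing leaves fewer samples.

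When single samples were left out in turn, 0 to 1 members and 44 to 155 genes were called for Collagen I over Control (162 with all samples), the 44 without Collagen I replicate 2. It gave 12 to 22 pathway genes for Fibronectin over Control, the 12 without Control replicate 1. For Geltrex over Fibronectin it gave 1 to 4 members, 3 to 10 pathway genes and 1717 to 3270 genes, the 1717 without Geltrex replicate 1. Log2 fold changes that changed sign this way ranged from −0.0269 to 0.156 for *Dll1*, −0.092 to 0.204 for *Hes6*, −0.0471 to 0.22 for *Hey1* and −0.0586 to 0.0506 for *Notch3* in Collagen I over Control. The others were *Hey1* at −0.109 to 0.11 in Collagen I over Geltrex, *Hey1* at −0.00634 to 0.196 in Geltrex over Control, *Notch1* at −0.176 to 0.0631 in Fibronectin over Control, and *Notch3* at −0.054 to 0.18 and *Numb* at −0.00214 to 0.0583 in Geltrex over Fibronectin. *Notch3* in Collagen I over Control was 0.00268 with only the samples compared. Each of the 10 genes had at least 183 counts in every sample, and a change of depth was not tested.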
